A study of Mus musculus with 7 samples.

Results

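Natural killer (NK) cells of NSCG brain tumours were described in 7 droplet single-cell libraries of whole tumours. A barcode counted as an NK cell when it held at least 2 UMIs (unique molecular identifiers, which count captured transcripts) of Ncr1 and Klrb1c together, 0 UMIs of Cd3d, Cd3e and Cd3g, and at most 1 UMI of C1qa, C1qb and C1qc together. Only barcodes of 1000 UMIs and 500 genes or more, with mitochondrial genes giving no more than 15% of UMIs, were considered. They numbered 51795, and 631 of them (1.22%) met the rule. The members were thus chosen by their UMIs of Ncr1, Klrb1c, the Cd3 genes and the C1q genes, which are given as a description and entered no test. The most similar class, 2523 T cells of the same libraries, was taken as barcodes with at least 2 UMIs of the Cd3 genes, 0 UMIs of Ncr1 and Klrb1c, and the same limit on C1q.

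NSCG is a mouse glioma line that carries mCherry and EGFRvIII and lacks Arf/Ink4a, and every group carried it as a brain tumour in C57BL/6 hosts of genotype WT aged 7 to 10 weeks. UT mice (1 library) were untreated, and IgG mice (2 libraries) received 10 mg/kg of an IgG2b isotype antibody. BP mice (2 libraries) received 5 mg/kg of B20, an antibody to the vessel growth factor VEGF, with an antibody to PD-L1 at 10 mg/kg. BPI mice (1 library) received the BP antibodies and 10 mg/kg of IPI-145, an inhibitor of the PI3K subunits delta and gamma, by mouth each day. CD40 mice (1 library) received an agonist antibody to CD40 in 2 doses of 100 µg given 5 days apart. IgG and BP antibodies were given every 3 days from day 6 to 7, and tumours were taken near day 14 after 3 rounds. Cells of at least 2 mice were pooled in each library, so a library counted as 1 sample, differences between mice could not be measured, and p-values cover only the spread between pools. Which IgG library belonged to the BPI experiment, and whether the CD40 mice also had a dendritic cell vaccine, could not be read from the labels.

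NK cells are innate lymphocytes that kill stressed, infected or transformed cells without a rearranged antigen receptor. Activating receptors such as NKp46 (Ncr1), NK1.1 (Klrb1c) and NKG2D (Klrk1) signal through the adaptors Tyrobp, Fcer1g and Hcst, while Ly49 receptors and CD94 (Klrd1) bind MHC class I and restrain the cell. An engaged NK cell releases perforin and granzymes onto its target and secretes interferon gamma and the chemokines Ccl3, Ccl4, Ccl5 and Xcl1, of which Xcl1 attracts cross-presenting dendritic cells. Type 1 innate lymphoid cells (ILC1) share Ncr1, Klrb1c and Tbx21 with NK cells, reside in tissues, and are known for the integrin Itga1, the chemokine receptor Cxcr6, the interleukin 7 receptor Il7r, Rora and, in mice, granzyme C.

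The libraries held 68997476 to 186793886 UMIs each, and their passing barcodes had medians of 8855 to 17876.5 UMIs. Summed over all pairs of libraries, 282 passing barcodes were shared, of which 3 were NK cells in 1 library and 0 in both. UT listed 713553 barcodes against 1487060 to 2310016 in the others, and it also stood apart in its NK cells outside cluster 1 (defined with the states): the Y-linked Eif2s3y was at 70.8 CPM in UT and 0 elsewhere, the female-specific transcript Xist was at 0 in UT against 249.6 to 603 CPM elsewhere (CPM is a gene's UMIs relative to all UMIs of the summed cells, on the usual scale of counts), and 6 genes that share sequence with ribosomal repeats (Gm42418, AY036118, Cdk8, Cmss1, Lars2 and Camk1d) took 0.0194% of its NK UMIs against 0.828% in BP 1 and 5.295% to 8.915% in the other 5 libraries. By library number, IgG 1, BP 2 and BPI were consecutive, as were CD40 and IgG 2, while UT and BP 1 had no neighbour among the groups. What set UT and BP 1 apart in these genes was not tested. Free RNA, estimated from barcodes of at most 100 UMIs, made up 12.4% to 36.6% of the NK sums over all members. The estimate rests on genes of tumour cells, macrophages and platelets, so such RNA inside members, cluster 1 included, also counts as free RNA. Without doublets and members over 10000 UMIs it was 8.07% in CD40 to 36.6% in IgG 1. In IgG 2 it was 9.26% instead of 29.3%.

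The label was checked against genes that the rule did not use. In CPM summed over NK cells outside cluster 1, 15 of 17 mature NK markers were above the T cells in all 7 libraries, as were 10 of 14 adaptors, while 17 of 22 cell cycle genes were below. Cluster 1, in which most cell cycle genes were raised, was left out of the NK side only. With it, the cell cycle list summed to 2136 to 5959.6 CPM in NK cells and 3247 to 5415 in T cells. Outside cluster 1 again, among 15863 genes with at least 10 UMIs, 743 (4.68%) were above and 1722 (10.9%) below the T cells in all 7. Gzma was at 4644 to 9326 CPM in NK cells and at 5.68 to 116 in T cells, and Eomes, a factor that marks NK cells against ILC1, was at 168 to 343 against 4.06 to 71.4. Trac, which the rule did not use, was at 0 to 29.1 against 185 to 560.1. Trbc1 transcripts were present in NK cells at 838 to 1110.02, above the 244 to 778 of T cells in all 7 libraries. Transcripts of the unrearranged locus are known in NK cells, but UMIs per gene cannot show rearrangement. Why Trbc1 was above T cells was not tested. Of the ILC2 and ILC3 genes, Il5, Il22 and Il17a had 0 UMIs in all libraries, while Gata3 was at 48.4 to 99.05 and Ncoa7 at 52.1 to 105, both of which other lymphocytes express too. The ILC2 list summed to 76.8 to 175 in NK cells and 68.1 to 259 in T cells. Neutrophil and red cell genes summed to at most 14.7 CPM in NK cells, but the neutrophil list reached 10581.5 CPM in the 40 T cells of IgG 1 and 303 in those of BP 1, against 4.06 to 51.1 in the T cells of the other 5 libraries.

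Many members were near the gate. Of the 631, 154 held exactly 2 gate UMIs, 235 held Ncr1 alone, 35 held Klrb1c alone and 361 held both. Outside the gate, 358 barcodes with 1 gate UMI met the other limits, 193 barcodes with at least 2 gate UMIs were left out for Cd3 UMIs, and 50 for C1q UMIs. NK cells had median depths of 3155 UMIs in UT, 2924 in IgG 1, 4859.5 in IgG 2, 4229.5 in BP 1, 2161 in BP 2, 1963 in BPI and 4812 in CD40, with BPI and BP 2 the shallowest.

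The depth of the members had a long tail that mattered for every later value. The 75 members over 10000 UMIs reached 113099 UMIs, and 61 of them fell in a single cluster of 75 cells, cluster 1, in which 52 cells were also among the highest doublet scores of their library. Sparc, Npas3, Auts2 and Col4a1 led cluster 1, and its tumour and glia list summed to 1900.3 CPM against 425 to 917 in the other clusters, its dendritic cell list to 2505 against 59.7 to 657, its endothelial list to 702 against 38.0 to 329.9 and its mature NK list to 1951 against 7439 to 24708. Cell cycle genes were also high there, with 20 of 22 raised and a sum of 5244 against 928 to 1542. Cluster 1 was given no cell type name. It held 6 of the 14 members of IgG 2 (42.9%), 9 of 48 in CD40 (18.75%) and 5.19% to 12.96% in the other 5 libraries. Its part of the UMIs was 32.5% in UT, 13.3% in IgG 1, 86.8% in IgG 2, 39.5% in BP 1, 46.4% in BP 2, 43.2% in BPI and 63.6% in CD40. Levels below are therefore CPM over the 556 members outside cluster 1 (73 in UT, 19 in IgG 1, 8 in IgG 2, 234 in BP 1, 47 in BP 2, 136 in BPI and 39 in CD40), a view chosen after seeing the data, and tests are given for all members first. A count of 0 still allows 2.60 CPM in BP 1, 11.04 to 29.1 in UT, BPI, CD40 and BP 2, 57.6 in IgG 1 and 101 in IgG 2, taking 3 counts as the limit.

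**Figure D1:**
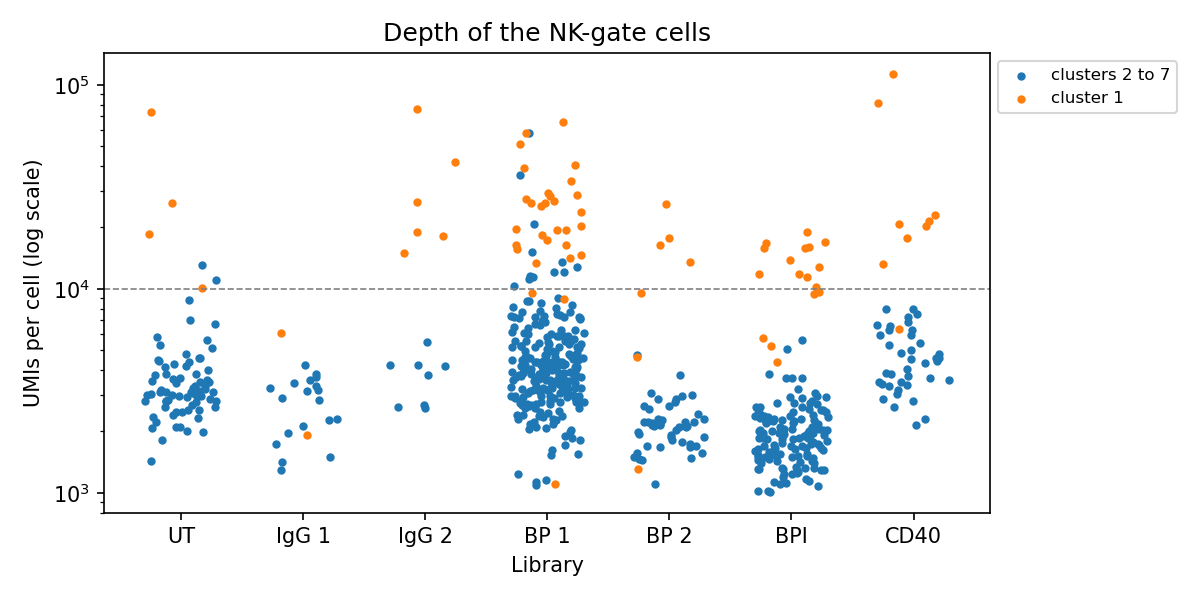
UMIs per NK cell (log axis) in each library, 1 point a cell, with cluster 1 in orange, clusters 2 to 7 in blue and a dashed line at 10000 UMIs. The members of cluster 1 had a median of 17709 UMIs, while members outside it had library medians of 1892 to 4405.

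NK cells were a larger part of the tumour in both BP libraries and in BPI than in either IgG library. They made up 0.336% of passing barcodes in IgG 1 (21 of 6257, exact 95% interval 0.208% to 0.513%) and 0.175% in IgG 2 (14 of 8006, 0.0956% to 0.293%). In BP they made up 2.50% of BP 1 (264 of 10539, 2.22% to 2.82%) and 0.899% of BP 2 (54 of 6009, 0.676% to 1.17%). The share was 2.17% in BPI (153 of 7035, 1.85% to 2.54%), 0.577% in CD40 (48 of 8323, 0.426% to 0.764%) and 1.37% in UT (77 of 5626, 1.08% to 1.71%). Both IgG shares were lower than all 5 others, and among pairs of an IgG library and a library of another group the intervals, which cover counting error only, overlapped for IgG 1 and CD40 alone.

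The share in BP was 1.70% ± 1.14 against 0.255% ± 0.114 in IgG (SD, n = 2 each), a difference of 1.45 percentage points. There was no overlap between the groups. By exact permutation (two-sided) p was 0.3333, the smallest value that 2 libraries against 2 can give. Among libraries with consecutive numbers, BP 2 (0.899%) and BPI (2.17%) were above IgG 1 (0.336%), and CD40 (0.577%) was above IgG 2 (0.175%). With each cell thinned to 1000 UMIs before the gate was applied, the difference was 0.590 points. Among barcodes with a UMI of the leukocyte gene Ptprc the groups overlapped, at 5.92% ± 1.14 in BP and 3.87% ± 3.43 in IgG (exact permutation p = 0.667, n = 2 each).

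The ratio of NK to T cells overlapped between BP and IgG. There were 21.9 and 24.8 NK cells per 100 T cells in BP 1 and BP 2, 52.5 and 22.95 in IgG 1 and IgG 2, 25.8 in BPI, 28.5 in UT and 36.1 in CD40. The mean was 23.3 ± 2.06 in BP and 37.7 ± 20.9 in IgG (SD, n = 2 each), a difference of -14.4 with overlapping groups (exact permutation p = 0.667). With a gate of at least 3 UMIs the means were 17.8 ± 0.124 and 28.6 ± 12.6 without overlap (exact permutation p = 0.3333, n = 2 each). The direction rested on IgG 1, which held 21 NK and 40 T cells: without it the difference was 0.362.

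**Figure D2:**
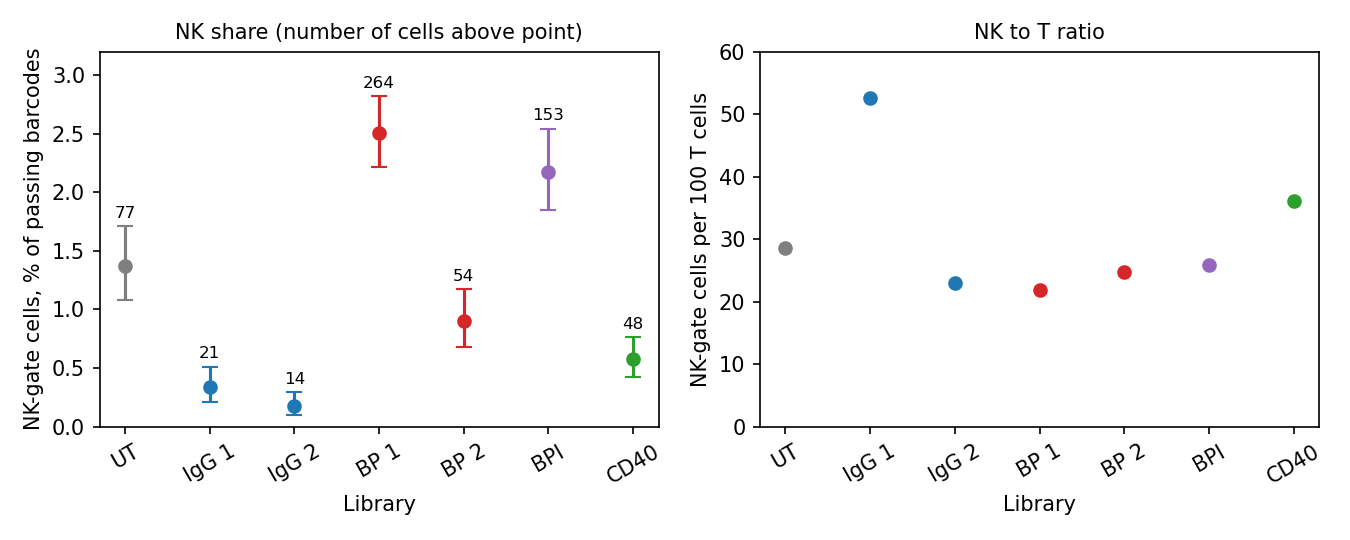
NK cells as a percentage of passing barcodes in each library, with exact 95% binomial intervals, and NK cells per 100 T cells. BP 1 (2.50%) and BPI (2.17%) are highest and IgG 2 (0.175%) lowest, while the ratio to T cells lies between 21.9 and 28.5 in 5 libraries and is 36.1 in CD40 and 52.5 in IgG 1.

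Within the members, 7 clusters were found, and their genes only describe them, since the same genes made them. Cluster 4 (66 cells) and cluster 6 (85 cells) were mature conventional NK-like, with Zeb2, S1pr5, Cma1 and Klrg1 among the leading genes of cluster 4 and Ccl5, Cma1, Klrg1, Ccl4, S1pr5 and Gzma among those of cluster 6, behind ribosomal repeat genes. A marker counted as raised when it was at least 2-fold above all other members pooled, cluster 1 included. The mature NK list was at 1951 CPM in cluster 1, so a raised marker need not exceed the other clusters. Klra4 was raised in cluster 7 at 740 CPM but was at 853 in cluster 6. Ctla2a was raised in cluster 3 at 1646 and was at 1563 in cluster 5. Clusters 4 and 6 had 14 and 9 of 17 mature NK markers raised, with 4 among the 10 leading genes of each. Other clusters had such markers raised too: cluster 7 had 8 raised and cluster 2 had 6, with 0 among the leading genes of either, and the list summed to 20472 CPM in cluster 2 against 23445 in cluster 4 and 24708 in cluster 6. Zeb2 and S1pr5 drive the last step of NK maturation and exit into blood, and Klrg1 marks terminally mature cells. Cluster 3 (43 cells) was ILC1-like, with 9 of 12 ILC1 and tissue residency markers raised and Gzmc, Il2ra, Cxcr6 and Thy1 among its leading genes. Its ILC1 list summed to 2831 CPM against 217 to 1117 in the other 6 clusters. T cells held the same list at 1515 to 3076 CPM over the libraries, so it did not set cluster 3 apart from T cells. Cluster 3 had the lowest gate levels outside cluster 1, with Ncr1 at 520 CPM and Klrb1c at 159. It also had 1 of 12 T cell (Cd28), 1 of 8 gamma delta T cell (Tcrg-C4) and 1 of 6 natural killer T cell markers (Icos) raised. Dscam, Ifitm1 and Spp1 led cluster 3 too. Of the immature NK markers, 6 of 10 were raised in it (Ltb, Emb, Il7r, Kit, Xcl1 and Ctla2a). The immature list summed to 4785 CPM in cluster 3 and 4015 in cluster 5. The ILC1 tally pools libraries: in BP 1, which gave 27 of the cells, Il7r (13.5 against 15.3), Rora (270.5 against 279) and Cd200r1 (6.76 against 13.8) were not above cluster 7, while Itga1 (152 against 15.3) and Cxcr6 (176 against 24.5) were. Of the 55 Itga1 UMIs of BP 1 outside cluster 1, 24 were in 1 cell of cluster 3 and 5 in another. Cluster 5 (141 cells) had 5 of 10 immature NK markers raised (Cd27, Ltb, Emb, Cd7 and Xcl1) behind ribosomal repeat genes, cluster 7 (153 cells) was led by Aff3, Satb1 and Bach2, and cluster 2 (68 cells) by Ly6c2, Ubb and Eif2s3y. These 3 stayed unnamed.

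The clusters followed the libraries. UT gave 67 of the 68 cells of cluster 2, BP 1 gave 57 of 66 in cluster 4 and 148 of 153 in cluster 7, while BPI and BP 2 gave 83 and 31 of 141 in cluster 5 and 49 and 16 of 85 in cluster 6. Sizes were therefore not compared between groups. Cluster 3 came from 5 libraries, with 27 cells from BP 1, 8 from CD40, 4 from UT, 3 from BPI and 1 from IgG 1. Other settings gave 5 to 10 clusters.

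**Figure D3:**
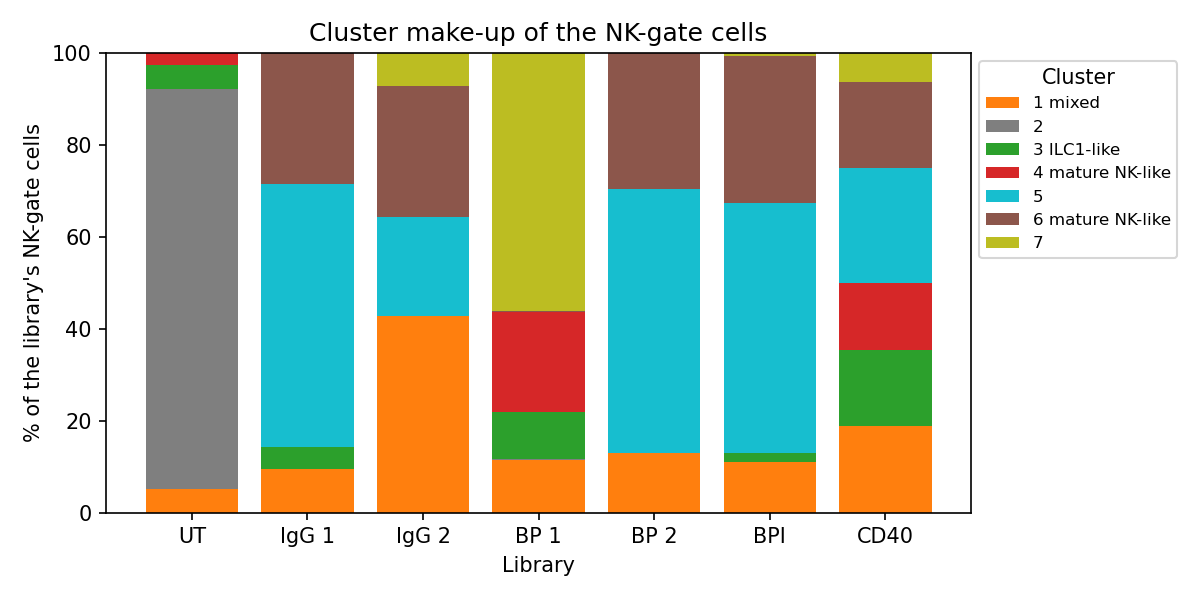
Stacked bars of the percentage of each library's NK cells in clusters 1 to 7. Cluster 2 takes 87.0% of UT, cluster 7 takes 56.1% of BP 1, and cluster 5 takes 57.4% of BP 2 and 54.2% of BPI.

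Levels in mature and ILC1-like cells of the same library are given for BP 1 and CD40, the libraries with at least 7 cells of clusters 3 and 4, as a description, since these genes helped to make the clusters. In BP 1, Gzma was at 12315 CPM in cluster 4 and 2062 in cluster 3, and Ccl5 at 12334 and 203. In CD40 the cluster 4 and cluster 3 values were 8582 and 21.9 for Gzma and 19300 and 0 for Ccl5. Both transcripts were lower in the ILC1-like cells of each library. Gzmb did not follow them, at 3095 in cluster 4 and 3661 in cluster 3 of BP 1 but 225 and 0 in CD40. Eomes parted them less evenly, at 246 against 125 in BP 1 and 449.7 against 0 in CD40. The ILC1-like cells of the 2 libraries were not alike in other genes: Prf1 was at 1592 in BP 1 and 0 in CD40, Il7r at 13.5 and 701, and Rora at 270.5 and 1708. Of the Prf1 UMIs of BP 1 in cluster 3, 313 were in 1 cell. The 27 cells from BP 1 and 8 from CD40 are 1 sample each, so no test was made.

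The granzyme locus on chromosome 14 differed between libraries. Granzymes are the serine proteases of the killing granule: Gzmb (ENSMUSG00000015437, chr14:56258838-56262260 in GRCm38) starts cell death in the target, and Gzmc (ENSMUSG00000079186, chr14:56231441-56234656), Gzmf, Gzmg, Gzmd and Gzme lie beside it on the same strand. The 250 bases before the RefSeq start of 3 of them are shown from GRCm38.p6, on the minus strand and 5′ to 3′, because Gzmb was found in most NK cells, Gzmc in few cells of 3 libraries and Gzmg in BP 1 alone. They are chr14:56262335-56262584 for Gzmb, chr14:56234658-56234907 for Gzmc and chr14:56159580-56159829 for Gzmg. Capitals mark letters found by a search of both strands: TGTGGT or its reverse complement ACCACA (bound by RUNX factors) and TCACAC (part of T-box sites, the family of Eomes and Tbx21).
Gzmb: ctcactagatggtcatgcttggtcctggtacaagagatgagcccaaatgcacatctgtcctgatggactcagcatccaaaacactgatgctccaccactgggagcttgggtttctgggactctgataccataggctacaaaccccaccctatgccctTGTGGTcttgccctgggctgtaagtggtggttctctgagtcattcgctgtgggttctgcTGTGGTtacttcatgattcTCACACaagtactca
Gzmc: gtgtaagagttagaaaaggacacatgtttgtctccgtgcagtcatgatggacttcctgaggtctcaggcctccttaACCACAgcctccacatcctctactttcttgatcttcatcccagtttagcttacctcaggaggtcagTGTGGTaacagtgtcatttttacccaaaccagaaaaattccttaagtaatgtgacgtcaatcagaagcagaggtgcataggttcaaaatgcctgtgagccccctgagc
Gzmg: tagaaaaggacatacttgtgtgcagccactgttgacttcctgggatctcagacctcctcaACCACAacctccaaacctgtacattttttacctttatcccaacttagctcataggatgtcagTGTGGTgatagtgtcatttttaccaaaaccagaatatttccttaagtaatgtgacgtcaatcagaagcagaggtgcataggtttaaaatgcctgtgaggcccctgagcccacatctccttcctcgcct
All 6 windows held 2 matches to TGTGGT, and Gzmb alone held TCACAC; TTCNNNGAA, the STAT motif, was in none. Of 32851 RefSeq windows of this length, 14.0% held TGTGGT, 12.3% TCACAC and 7.02% TTCNNNGAA. The windows of Gzmc to Gzmg were 77.2% to 95.2% identical to each other (10 pairs) and 49.2% to 54% identical to Gzmb (5 pairs). Their transcripts were 70.1% to 90.04% identical, so how the reads were split among Gzmc to Gzmg is uncertain, and they are also given as a sum.

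Granzymes C to G were found in a few NK cells of 3 libraries. Outside cluster 1, Gzmc to Gzmg gave 7152 UMIs in BP 1, 170 in UT and 72 in CD40, and 0 in IgG 1, IgG 2, BP 2 and BPI. The cells with such a UMI numbered 29 of 234 in BP 1 (12.4%), 3 of 73 in UT and 2 of 39 in CD40. Most of the UMIs sat in very few cells: 2 cells of BP 1 held 6243 of its 7152 (87.3%), and 13 of the 29 cells had a single UMI. Free RNA was estimated to give at most 0.593% of the NK UMIs of Gzmc, over all members of the libraries that held it. Whether the single UMIs were free RNA was not tested. Of the 7152 UMIs of BP 1, 7116 were in 12 cells of the ILC1-like cluster 3, and all 170 of UT and all 72 of CD40 were in that cluster as well. Gzmc was the first of the leading genes of cluster 3, and the clusters were made from these same values. This placement is therefore a description and no separate evidence on the type of the cells. Over all members BP 1 held 9607 such UMIs, of which 2444 were in 1 cell of cluster 1 with 65966 UMIs, and that cell is outside the values that follow.

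Outside cluster 1 the richest cell, in BP 1, held 57876 UMIs, of which 4392 (7.59%) were of Gzmc to Gzmg: 743 Gzmc, 1112 Gzmd, 467 Gzme, 735 Gzmf and 1335 Gzmg. It also held 362 UMIs of Gzmb, 313 of Prf1, 158 of Gzma, 62 of Il2ra (the high-affinity interleukin 2 receptor chain), 57 of Tyrobp and 56 of Fcer1g, with 0 of Trac and 2 of the tumour list. Further counts in this cell were 168 of Ifitm1, 98 of Ctsg, 61 of Spp1 and 44 of Fcrl6, with 0 of Ccl5. The next outside cluster 1 held 36307 UMIs with 1851 of Gzmc to Gzmg, 76 of Tyrobp and 24 of Itga1. The third held 20878 UMIs with 430 of Gzmc and none of Gzmd to Gzmg. Cxcr6 had 0 UMIs in all 3, and Eomes had 10, 1 and 0. Over BP 1, 69.0% of carrying cells and 66.8% of the other cells had an Eomes UMI. Of the 29 carrying cells, 12 were in cluster 3 and held 7116 of the 7152 UMIs. Eomes was at 125 CPM in cluster 3 of BP 1 and 474 in its cluster 7. The 3 richest cells passed the gate on few UMIs, with 2 of Ncr1 and 2 of Klrb1c, 2 and 0, and 4 and 1. Whether these 3 were NK cells was not tested. All 5 carrying cells of UT and CD40 had Gzmc without Gzmd to Gzmg, and both in CD40 had 0 UMIs of Gzma, Gzmb, Prf1, Ccl5 and Eomes.

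Gzmc was at 1785 CPM in BP 1, 633 in UT and 396 in CD40. Against the limit that 0 counts allow over the IgG libraries together (36.6 CPM, from 3 counts), these were at least 48.8-fold, 17.3-fold and 10.8-fold higher. In BP 1 the bound was 31.1-fold for Gzmd, 14.9-fold for Gzme, 26.9-fold for Gzmf and 47.3-fold for Gzmg. Without the 2 richest cells of each library, Gzmc was at 797 in BP 1, 8.19 in UT and 0 in CD40. BP 2 was at 0, so the BP libraries did not share this signal.

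**Figure D4:**
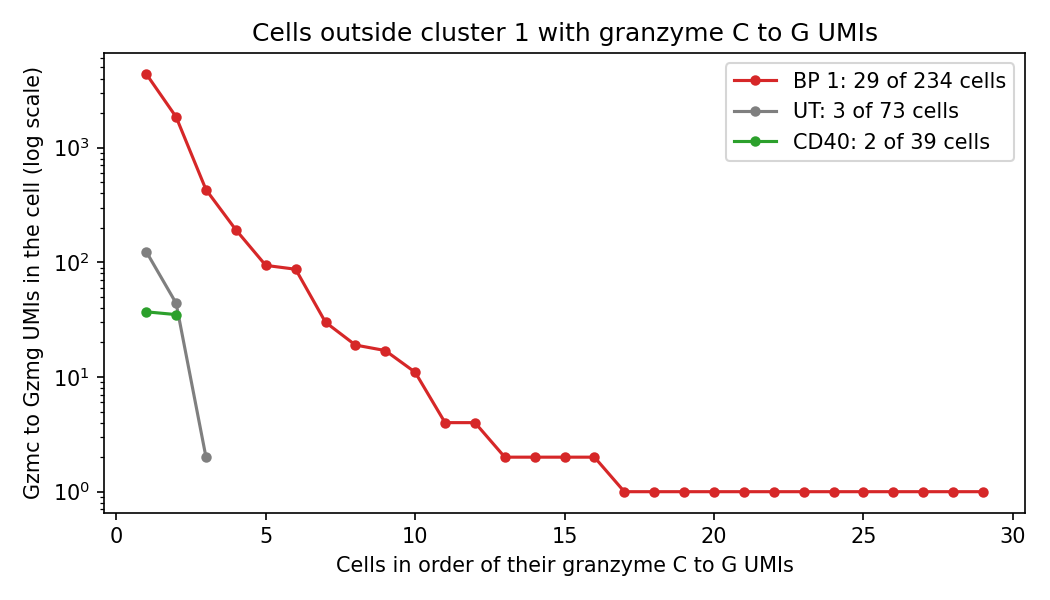
UMIs of Gzmc to Gzmg together (log axis) in each carrying cell outside cluster 1, with cells ordered from highest to lowest along the horizontal axis and 1 line a library. BP 1 falls from 4392, 1851 and 430 UMIs to 13 cells with 1 UMI, UT has 3 cells and CD40 has 2, and the other 4 libraries have none and are not drawn.

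Gzmb differed widely between libraries. Its CPM was 5755 in UT, 941 in IgG 1, 637 in IgG 2, 2663 in BP 1, 1715 in BP 2, 2719 in BPI and 182 in CD40. The exact 95% counting intervals were 5472 to 6049 in UT (1545 UMIs), 696 to 1244 in IgG 1 (49 UMIs), 383 to 994 in IgG 2 (19 UMIs), 2570.1 to 2759 in BP 1, 1472 to 1987 in BP 2, 2526 to 2922 in BPI and 125 to 255 in CD40 (33 UMIs). UT was highest and CD40 lowest, both BP libraries and BPI were above both IgG libraries, and the intervals of IgG 1 and IgG 2 overlapped. Free RNA was estimated to give at most 1.94% of the NK UMIs of Gzmb in any library, over all members.

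The share of NK cells with a Gzmb UMI had the same order once cells were thinned, and BPI was below both BP libraries without thinning. With each cell thinned to 1000 UMIs it was 83.1% in UT, 42.9% in IgG 1, 21.4% in IgG 2, 55.7% in BP 1, 53.7% in BP 2, 63.4% in BPI and 8.33% in CD40, over all members. Without thinning it was 92.2% in UT, 52.4% in IgG 1, 42.9% in IgG 2, 79.5% in BP 1, 75.9% in BP 2, 73.2% in BPI and 27.1% in CD40. Barcodes without Ptprc, gate, Cd3 or C1q UMIs, which should lack the gene, showed 0% to 0.956% after thinning, and T cells showed 4.51% to 50.4%. In BP the thinned share was 54.7% ± 1.40 against 32.1% ± 15.2 in IgG (SD, n = 2 each), a difference of 22.5 points without overlap (exact permutation p = 0.3333, the smallest possible).

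The rest of the killing machinery varied less. Perforin (Prf1), which opens the target membrane, was at 968 in UT, 499 in IgG 1, 603 in IgG 2, 1099 in BP 1, 1095 in BP 2, 971 in BPI and 622 in CD40. Both BP libraries and BPI were above both IgG libraries and CD40. Gzma was at 8359 in UT, 4684 in IgG 1, 7136 in IgG 2, 6281 in BP 1, 7538 in BP 2, 9326 in BPI and 4644 in CD40, where IgG 2 lay above BP 1, so BP and IgG overlapped. Nkg7, a granule membrane protein needed for release, was at 1541 to 3769.6, with BP 1 lowest and UT highest. Fas ligand (Fasl), the other route of killing, was at 317 in UT, 192 in IgG 1, 235 in IgG 2, 243 in BP 1, 262 in BP 2, 235 in BPI and 154 in CD40 CPM, with CD40 lowest and UT highest. The summed list of 19 granule genes was at 22294 in UT, 10213 in IgG 1, 13233 in IgG 2, 18632 in BP 1, 15619.5 in BP 2, 18649 in BPI and 9608 in CD40, of which Gzmc to Gzmf in BP 1 came mostly from the few cells described.

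**Figure D5:**
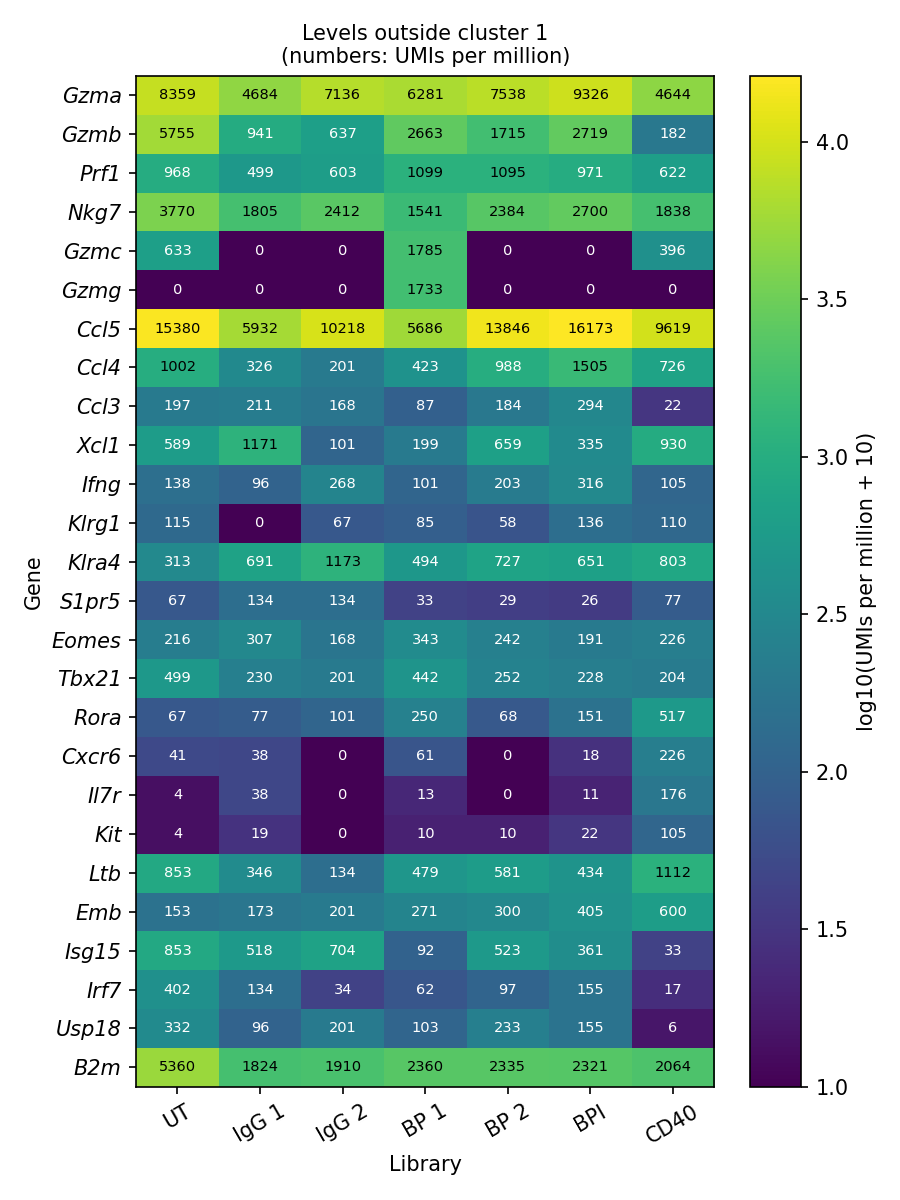
Heat map of CPM in NK cells outside cluster 1, with genes in the vertical direction and libraries in the horizontal, the CPM printed in each field and colour giving log10 of CPM plus 10. Gzmb runs from 182 in CD40 to 5755 in UT, Isg15 from 33.02 in CD40 to 853 in UT, and Rora from 67.05 in UT to 517 in CD40.

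Receptors and adaptors of NK cells were detected in every library. Klrk1, which binds stress ligands on tumour cells, was at 1155 in UT, 729.5 in IgG 1, 637 in IgG 2, 562 in BP 1, 824 in BP 2, 725 in BPI and 545 in CD40. Klrd1, the CD94 chain of the inhibitory and activating NKG2 receptors, was at 662 to 1239.6. The adaptor Tyrobp (DAP12) was at 1892 in UT, 1977 in IgG 1, 2412 in IgG 2, 1377 in BP 1, 2374 in BP 2, 2163 in BPI and 2135 in CD40, and Fcer1g was at 939 to 2008. The list of 19 activating receptors, which includes the gate genes, summed to 3972 to 5628, that of 14 adaptors and proximal signalling genes to 4901 to 6303 and that of 14 inhibitory receptors to 1711 to 2680.2. The Ly49 receptor Klra4 (Ly49D, activating) was at 313 in UT, 691 in IgG 1, 1173 in IgG 2, 494 in BP 1, 727 in BP 2, 651 in BPI and 803 in CD40. UT was lowest for it and IgG 2 highest.

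Chemokine transcripts were abundant. Ccl5, which draws T cells and myeloid cells, was at 15380.1 in UT, 5932 in IgG 1, 10218 in IgG 2, 5686 in BP 1, 13846 in BP 2, 16173 in BPI and 9619 in CD40. It was lowest in BP 1 and IgG 1 and highest in BPI, and the BP libraries lay on both sides of IgG 2. Ccl4 was at 1002 in UT, 326 in IgG 1, 201 in IgG 2, 423 in BP 1, 988 in BP 2, 1505 in BPI and 726 in CD40, with BPI highest and both BP libraries above both IgG libraries. Its sister Ccl3 was at 197 in UT, 211 in IgG 1, 168 in IgG 2, 87.4 in BP 1, 184 in BP 2, 294 in BPI and 22.01 in CD40. Xcl1 was at 589 in UT, 1171 in IgG 1, 101 in IgG 2, 199 in BP 1, 659 in BP 2, 335 in BPI and 929.95 in CD40, and the 2 IgG libraries held the highest value and the lowest. Ifng, the main NK cytokine, was at 138 in UT, 95.99 in IgG 1, 268 in IgG 2, 101 in BP 1, 203 in BP 2, 316 in BPI and 105 in CD40, on 5 UMIs in IgG 1 and 8 in IgG 2.

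Transcription factors of the lineage were present in every library. Eomes was at 216 in UT, 307 in IgG 1, 168 in IgG 2, 343 in BP 1, 242 in BP 2, 191 in BPI and 226 in CD40. Tbx21 (T-bet), shared by NK cells and ILC1, was at 499 in UT, 230.4 in IgG 1, 201 in IgG 2, 442 in BP 1, 252 in BP 2, 228 in BPI and 204 in CD40. Irf8, which NK cells need for maturation, was at 1523 in UT, 538 in IgG 1, 771 in IgG 2, 941 in BP 1, 1143 in BP 2, 1111 in BPI and 550.3 in CD40. Zeb2 was at 331 to 571 and Id2, which all innate lymphoid cells need, at 335 to 1281. The list of 20 factors summed to 4489 to 6269. S1pr5, the receptor for exit from tissue, was at 67.05 in UT, 134 in IgG 1, 134 in IgG 2, 32.9 in BP 1, 29.1 in BP 2, 25.8 in BPI and 77.04 in CD40. It was lower in both BP libraries and BPI than in both IgG libraries, which rest on 7 and 4 UMIs.

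The sum of the ILC1 and tissue residency genes was highest in CD40. The list of 12 summed to 756 in UT, 959.9 in IgG 1, 235 in IgG 2, 1227 in BP 1, 678 in BP 2, 747 in BPI and 2487 in CD40. Rora was at 67.05 in UT, 76.8 in IgG 1, 101 in IgG 2, 249.99 in BP 1, 67.8 in BP 2, 151 in BPI and 517 in CD40, from 94 UMIs in 15 cells of CD40. Cxcr6, which holds lymphocytes near Cxcl16, was at 40.97 in UT, 38.4 in IgG 1, 0 in IgG 2, 60.6 in BP 1, 0 in BP 2, 18.4 in BPI and 226 in CD40. Il7r was at 3.72 in UT, 38.4 in IgG 1, 0 in IgG 2, 12.97 in BP 1, 0 in BP 2, 11.04 in BPI and 176 in CD40, and Tmem176a at 67.05 in UT, 76.8 in IgG 1, 0 in IgG 2, 32.01 in BP 1, 0 in BP 2, 18.4 in BPI and 253 in CD40. Not every member followed the sum: Itga1 was at 47.6 in BP 1 and 44.02 in CD40, and within CD40 at 21.9 in cluster 3 and 96.2 in cluster 5. In CD40 the 8 cells of cluster 3 held most of the Il7r and Cxcr6: Il7r was at 701 there and 0 in clusters 4, 5 and 6, and Cxcr6 at 701 against 112 in cluster 5 and 0 in clusters 4 and 6. Genes of other cell types were also high in CD40 outside cluster 1: the microglia list of 8 summed to 682 against 103 to 369 in the other 6 libraries, and the dendritic cell list of 11 to 352 against 154 in IgG 1 and 33.5 in IgG 2, with 393 in BP 1. In cluster 3 of CD40, H2-Aa was at 394 and H2-Ab1 at 438. Their part in the ILC1 sum was not tested. In such sums, a change in the mix of cells and a change in RNA per cell cannot be told apart.

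Outside cluster 1 the sum of the immature NK genes was also highest in CD40, but over all members it was not. Ltb (lymphotoxin beta) was at 853 in UT, 346 in IgG 1, 134 in IgG 2, 479 in BP 1, 581 in BP 2, 434 in BPI and 1112 in CD40, and Emb at 153 in UT, 173 in IgG 1, 201 in IgG 2, 271 in BP 1, 300.4 in BP 2, 405 in BPI and 599.8 in CD40. Kit was at 0 to 105, with CD40 highest. The list of 10 summed to 2961 in UT, 2879.7 in IgG 1, 1474 in IgG 2, 2772 in BP 1, 3159 in BP 2, 3072 in BPI and 4116 in CD40. Over all members the sum was 1979 in CD40, below IgG 1 (2879), UT (2873) and BPI (2021). It was above BP 2 (1937), BP 1 (1863) and IgG 2 (234) there. Bcl2 and Il2rb were highest in BP 1. Bcl2, which keeps resting NK cells alive, was at 961 in UT, 729.5 in IgG 1, 704 in IgG 2, 2122 in BP 1, 930.2 in BP 2, 820.4 in BPI and 677 in CD40, and Il2rb, the receptor chain for interleukins 2 and 15, at 868 in UT, 499 in IgG 1, 637 in IgG 2, 1259 in BP 1, 833 in BP 2, 813 in BPI and 677 in CD40. BP 2 was above both IgG libraries for both genes.

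Outside cluster 1 the sum of the interferon response genes was highest in UT and lowest in CD40. Over all members it was highest in UT (10950) and lowest in IgG 2 (649), with CD40 at 702. Outside cluster 1 the 24 matched genes summed to 6947 in UT, 3628 in IgG 1, 2412 in IgG 2, 2309.6 in BP 1, 3692 in BP 2, 3226 in BPI and 814 in CD40. Isg15, a ubiquitin-like protein induced by type I interferon, was at 853 in UT, 518 in IgG 1, 704 in IgG 2, 91.7 in BP 1, 523 in BP 2, 361 in BPI and 33.02 in CD40. The CD40 value came from 6 UMIs in 2 of 39 cells and the IgG 2 value from 21 UMIs in 2 of 8 cells, 20 of them in 1 cell. Irf7, which amplifies interferon production, was at 402 in UT, 134 in IgG 1, 33.5 in IgG 2, 62.3 in BP 1, 96.9 in BP 2, 155 in BPI and 16.5 in CD40, and Usp18, which removes Isg15, at 332 in UT, 95.99 in IgG 1, 201 in IgG 2, 103 in BP 1, 233 in BP 2, 155 in BPI and 5.503 in CD40. Isg15 was also low in T cells of CD40, at 82.03 CPM against 698 in IgG 1 and 150.1 in IgG 2. The interferon list in T cells did not follow, at 2019.7 in CD40, 1545 in IgG 2 and 6108 in IgG 1. Over all members, cluster 1 included, free RNA was estimated to give 21.7% to 48.9% of the NK UMIs of Isg15. Its part in the differences was not tested.

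The sum of MHC class I, the ligand of NK inhibitory receptors, was highest in UT in NK cells and in T cells. B2m was at 5360.1 in UT, 1824 in IgG 1, 1909.6 in IgG 2, 2359.7 in BP 1, 2335 in BP 2, 2321 in BPI and 2064 in CD40, and H2-D1 at 7014 in UT, 3187 in IgG 1, 3183 in IgG 2, 2789.6 in BP 1, 3769 in BP 2, 4286 in BPI and 3192 in CD40. The 11 genes of the list summed to 18431 in UT and to 7772 to 10886 in the other 6 libraries. In T cells the sum was 18192 in UT against 4293 to 10586 in the other libraries, and their interferon list summed to 13597 in UT against 1545 to 6914. The tumour and glia list outside cluster 1 summed to 905 in UT against 513 to 779.9, and its part in the UT values was not tested. The macrophage and monocyte list summed to 1844 in UT against 302 to 731, of which 1401 in UT was Ly6c2, a gene that NK cells also express.

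The checkpoint list of 15 genes summed to 961 to 1642 in NK cells and 497 to 2045 in T cells. Cd96 was at 19.2 to 168, Ctla4 at 0 to 82.5 and Entpd1 at 38.5 to 141, and 6 of the 15 were raised in cluster 3 (Ctla4, Lag3, Havcr2, Cd96, Vsir and Cish). Pdcd1, the PD-1 receptor whose ligand the BP treatment blocks, had 1 UMI in 556 NK cells, in BP 1. Lag3 was at 0 to 33.5 and Tigit at 0 to 33.5 CPM, and Havcr2 was at 34.6 in BP 1, 3.72 in UT and 0 elsewhere. Of the 40 UMIs of Havcr2 in BP 1, the 2 cells richest in granzymes C to G held 21 and 5. Outside cluster 1, where most cell cycle genes were lower than in it, Mki67 was at 0 to 38.8 in NK cells and 74.3 to 259 in T cells, and the cell cycle list at 974 to 2077 against 3247 to 5415. Over all members the list summed to 2136 to 5959.6, and in IgG 2 the NK sum of 5959.6 was above the 3569 of T cells. The subunits that IPI-145 inhibits were measured: Pik3cd was at 209 in UT, 134 in IgG 1, 302 in IgG 2, 239.6 in BP 1, 116 in BP 2, 103 in BPI and 220.1 in CD40, and Pik3cg at 29.8 in UT, 19.2 in IgG 1, 0 in IgG 2, 70.1 in BP 1, 67.8 in BP 2, 29.4 in BPI and 99.05 in CD40. BPI lay within the range of the other libraries for Pik3cg and was lowest for Pik3cd, where its interval (68.5 to 149) overlapped that of BP 2 (60.1 to 203).

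The first test asked whether NK cells of BP tumours differed from those of IgG tumours. Over all members, with an adjusted p under 0.05 as the threshold, edgeR's quasi-likelihood fit called 0 of 8310 genes (0.0%), with 254 at an unadjusted p under 0.05, and DESeq2 called 4, Gzmc, Gzmg, Gzmf and Iigp1. Gzmb had a log2 fold change of 1.79 ± 0.72 (SE, adjusted p = 1), Prf1 of 1.17 ± 0.59 (SE, adjusted p = 1), Gzma of 0.77 ± 0.49 (SE, adjusted p = 1), Ccl4 of 1.21 ± 0.68 (SE, adjusted p = 1) and Bcl2 of 1.39 ± 0.68 (SE, adjusted p = 1) in edgeR. None passed the threshold. In these sums cluster 1 gave 86.8% of the UMIs of IgG 2. The mature NK list of IgG 2 was at 2620 CPM over all members and at 12262 outside cluster 1. The part of cluster 1 in these fold changes was not tested. The count of called genes was 21 without BP 2, 2 without IgG 1 and 1 without IgG 2. Over 18 settings the adjusted p of Gzmb was 0.0703 to 1.

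Outside cluster 1, the same test called 6 of 4081 genes higher in BP (0.147%): Gzmc, Gzmd, Gzme, Gzmf, Gzmg and Ppp1r3b. DESeq2 called 0 there (40 at an unadjusted p under 0.05). Of the 6, 5 are the granzymes that BP 1 held and BP 2 did not. Gzmd to Gzmg had 0 UMIs in all other libraries and passed the filter on low counts through BP 1 alone. Their calls thus restate the counts of that library. Ppp1r3b, a regulator of glycogen storage, had 180 UMIs in 102 cells of BP 1, 13 in BP 2 and 0 in both IgG libraries, with an adjusted p of 0.0359. In edgeR no gene was called without BP 1 or without IgG 1, and 30 were called without BP 2. Ppp1r3b was named after its values were seen, and its adjusted p was 0.637 without IgG 2. Gzmb was at 1.48 ± 0.44 (SE, adjusted p = 0.239). Over all genes tested the median was 0.05. The interferon list had 11 of 23 positive with a median of -0.18, and MHC class I 9 of 11 with 0.39. Activating receptors had 4 of 14 positive with a median of -0.28.

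A model with the replicate number as a replicate block was fitted to the 2 IgG and 2 BP libraries. It called 0 of 4432 genes (59 at an unadjusted p under 0.05), as did the same 4 libraries without the replicate block (81). Deviations of same-numbered libraries correlated at 0.036. With 2 libraries in a group the crossed pairs must give the same value with the other sign (-0.036). This value could therefore not decide whether the numbers pair the libraries.

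BPI was compared with IgG and with BP to see what the PI3K inhibitor added. Over all members edgeR called 0 of 8310 genes for BPI against IgG (0.0%, with 196 at an unadjusted p under 0.05) and 0 for BPI against BP (0.0%, 78), and DESeq2 called 0 in each. Against IgG, Gzmb was at 2.14 ± 0.82 (SE, adjusted p = 1), Ccl4 at 2.38 ± 0.78 (SE, adjusted p = 1), Ccl5 at 1.67 ± 0.58 (SE, adjusted p = 1) and Klrg1 at 3.69 ± 1.01 (SE, adjusted p = 1) on the log2 scale. Against BP, Gzmb was at 0.35 ± 0.82 (SE, adjusted p = 1), Ccl3 at 1.41 ± 0.76 (SE, adjusted p = 1) and Ifng at 1.15 ± 0.69 (SE, adjusted p = 1). The IgG side again held most UMIs of IgG 2 in cluster 1, and the part of this in the fold changes was not tested. BPI is a single library, assumed to vary like the other groups. Without BP 1 or BP 2, 5 and 2 genes were called against IgG (Ccl5 among the 5, adjusted p = 0.00301), and without BP 2 or IgG 2, 14 and 1 against BP. The 2 comparisons share BPI, and those with IgG share the IgG libraries.

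Outside cluster 1, Ccl4 was higher in BPI than in IgG, the single call among 4081 genes (0.0245%), at 2.65 ± 0.54 (SE, adjusted p = 0.00441). The 409 UMIs were in 55 of 136 cells, and 88 of them in 1 cell. The adjusted p was 0.866 without IgG 1 and 0.998 without IgG 2, and DESeq2 called 0 (21 at an unadjusted p under 0.05). Without BP 1 or without BP 2, 3 genes were called. All 11 MHC class I genes had positive values, none called, with a median of 0.55 against 0.03 over all genes. For BPI against BP, 8 genes were called (0.196%), 7 lower and 1 higher. The 7 lower were Gzmc to Gzmg, Ifitm1 and Spp1, of which Ifitm1 had 438 UMIs in 13 cells of BP 1 and 1 UMI in BP 2. Spp1 had 304 UMIs in BP 1, 165 of them in 1 cell, and 1 in BP 2. Without BP 1, Gzmd to Gzmg, Ifitm1 and Spp1 did not pass the filter on low counts. They were tested only because BP 1 held them, so their calls restate the counts of that library. The higher gene was Ttr, with 8 UMIs in BPI, each in another cell, and 0 in BP. Ttr was at 29.4 CPM in BPI, below the 193 of CD40 and the 101 of IgG 2. No gene was called without BP 1 or without IgG 1, 45 were called without BP 2, and DESeq2 called 0 (4 at an unadjusted p under 0.05). Ifitm1, Spp1 and Ttr were named after their values were seen. The adjusted p of Gzmb was 0.99999.

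CD40 was compared with IgG to ask what the agonist changed. Like BPI, CD40 is a single library, assumed to vary like the other groups. Over all members 14 of 8310 genes were called (0.168%), all higher in CD40, and DESeq2 called 2. The 14 were Igfbp7, Cldn5, Itm2a, Slco1c1, Ptprb, Eng, Ebf1, Col4a2, Kdr, Ly6c1, Rflnb, Flt1, Col4a1 and Cd93, of which Cldn5, Kdr, Flt1 and Slco1c1 are known vessel or blood-brain barrier genes. For all 14, a single cell gave most of the UMIs and cluster 1 over 90%: 324 of the 334 UMIs of Cldn5 and 156 of the 160 of Slco1c1 were in 1 cell. None of the 14 was called outside cluster 1. Without BP 2 edgeR called 23. Gzmb, at -2.61 ± 0.99 (SE, adjusted p = 1), Ccl3, at -3.59 ± 1.12 (SE, adjusted p = 0.863), and Isg15, at -3.57 ± 1.08 (SE, adjusted p = 0.729), were not called with all libraries. Without IgG 2, 5 genes were called higher and 5 lower, and Gzmb and Ccl3 each had an edgeR adjusted p of 0.0453.

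Outside cluster 1, 6 of 4081 genes were called in CD40 (0.147%): Gzmc, S100a4, Rora and Ltb were higher, and Isg15 and Ifitm3 lower. Gzmc had 72 UMIs in 2 cells of CD40 and 0 in IgG 1, IgG 2, BP 2 and BPI. It passed the filter on low counts only through libraries that held it, so its call restates the counts of those 2 cells. Rora was at 2.69 ± 0.68 (SE, adjusted p = 0.0477), Ltb at 2.22 ± 0.56 (SE, adjusted p = 0.0477), S100a4, a calcium-binding protein of motile cells, at 3.18 ± 0.69 (SE, adjusted p = 0.00348) and Isg15 at -4.06 ± 0.76 (SE, adjusted p = 1.98e-04). Ifitm3, an antiviral membrane protein, had 0 UMIs in CD40 and in IgG 2 and 15 in IgG 1, so CD40 and IgG 2 were both at 0. For Isg15, 1 cell gave 20 of the 21 UMIs of IgG 2 and 9 of the 27 of IgG 1. Of the 12 ILC1 genes 8 passed the filter on low counts, which some could pass through CD40 itself, and 1 was called, Rora. All 23 tested interferon genes were below 0 with a median of -2.39, against 0.02 over all genes, and 1 was called, Isg15. Gzmb, at -2.03 ± 0.60 (SE, adjusted p = 0.192), was not called. The IgG side rested on 19 and 8 cells: without IgG 1 edgeR called no gene (Isg15 adjusted p = 0.897), without IgG 2 Gzmc, Ifitm3 and Isg15 (0.0063) were called and Rora and Ltb were not, and DESeq2 called 0 (49 at an unadjusted p under 0.05). Without BP 1 or without BP 2, 10 genes were called. S100a4 and Ifitm3 were named after their values were seen.

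UT was compared with IgG, both without a drug aimed at the tumour. UT too is a single library, assumed to vary like the other groups. Over all members 65 of 8996 genes were called (0.723%), 48 higher and 17 lower in UT, and DESeq2 called 20. Gzmb, at 3.37 ± 0.77 (SE, adjusted p = 0.0292), was among the 65, with 1582 UMIs in 71 of 77 cells. Its adjusted p was 0.101 with DESeq2 (log2 fold change 3.33) and 0.431 in edgeR with free RNA subtracted (3.36), and over 15 settings the log2 fold change was 2.51 to 5.50. Without IgG 2 edgeR called no gene, and without IgG 1 it called 537. Of the 48 higher genes, 29 had over 90% of their UMIs in cluster 1 and 37 had most of them in 1 cell, such as Ubd with 661 of 664 UMIs. Gbp2, an interferon-induced GTPase, was at 5.61 ± 1.21 (SE, adjusted p = 0.0174) over all members and 1.78 ± 1.12 (SE, adjusted p = 0.832) outside cluster 1. Of the 17 lower genes, 6 were the ribosomal repeat genes, such as Gm42418 at -8.37 ± 1.05 (SE, adjusted p = 3.48e-05), and Xist was another.

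Outside cluster 1, 22 of 5381 genes were called (0.409%), 10 higher and 12 lower, and DESeq2 called 14, of which 12 were shared. Gzmb was at 3.04 ± 0.53 (SE, adjusted p = 4.91e-06), with 1545 UMIs in 68 of 73 cells, and DESeq2 gave it an adjusted p of 3.23e-05. The other higher genes were Gzmc, Ifitm1, Ifi27l2a, Ly6a, Ly6c2, Plac8, Shisa5, Ubb and Rpl10. For Gzmc, 168 of the 170 UMIs of UT were in 2 cells and both IgG libraries held 0, so its call restates the counts of those cells. Ly6a (Sca-1), raised on activated lymphocytes by interferon, was at 2.75 ± 0.63 (SE, adjusted p = 0.0041) and Ifi27l2a at 2.39 ± 0.62 (SE, adjusted p = 0.0351), while 84 of the 86 Ifitm1 UMIs were in 1 cell. The interferon list had 22 of 24 positive, a median of 1.46 and 2 called, and MHC class I 11 of 11 positive, a median of 1.35 and 0 called, against a median of 0.08 over all genes. Without BP 1 the count was 45 and without BP 2 it was 38. Without IgG 1 or without IgG 2, which leaves 1 IgG library, the edgeR calls were lost, that of Gzmb among them. Its log2 fold change in these fits was 3.45 and 2.69. UT also differs from IgG in its barcode list, in the female-specific Xist and the Y-linked Eif2s3y, and in the repeat genes. These differences cannot be told apart from the treatment.

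The last test asked whether the BP effect differed between NK and T cells. An interaction of cell class and group, with the library as a term, called 0 of 7175 genes over all members (0.0%), with 348 at an unadjusted p under 0.05. Without IgG 1 it called 286, without IgG 2 42 and without BP 2 9. Ccl3 was at -3.99 ± 0.84 (SE, adjusted p = 0.784), Ifng at -2.06 ± 0.57 (SE, adjusted p = 0.7999), Bcl2 at 1.58 ± 0.38 (SE, adjusted p = 0.784) and Gzmb at -1.12 ± 0.48 (SE, adjusted p = 1) as log2 differences of NK minus T.

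With NK cells outside cluster 1, 14 of 6685 genes were called (0.209%), 8 lower and 6 higher for NK. The classes were filtered differently: cluster 1 was left out on the NK side only, and the T sums kept all their cells. Cluster 1 had held 13.3% of the NK UMIs in IgG 1, 86.8% in IgG 2, 39.5% in BP 1 and 46.4% in BP 2. What this added to the calls was not tested. The T cells of IgG 1 in this contrast held the neutrophil genes S100a8 and S100a9 at 3554 and 5796 CPM and Lyz2 at 545, against 6.08 for Lyz2 in IgG 2. Without IgG 1 the adjusted p of Lyz2 was 0.935. Ccl3, Ifng, Gzmb, Gzma, Klrd1, Il12rb2, Rad51b and Gm19585 were the lower ones. For Ccl3 the difference was -4.10 ± 0.79 (SE, adjusted p = 5.81e-04): T cells held 22.7 and 4.06 CPM in IgG 1 and IgG 2 and 159.5 and 89.6 in BP 1 and BP 2, while NK cells held 211 and 168 in IgG and 87.4 and 184 in BP. For Gzmb it was -1.63 ± 0.41 (SE, adjusted p = 0.0404): T cells held 131 and 50.7 in IgG and 978 and 835 in BP, so both BP values lay above both IgG values in each class. Ifng was at -2.75 ± 0.65 (SE, adjusted p = 0.0175), with T cells at 39.7 and 54.8 in IgG and 260.5 and 352 in BP. Of the 6 higher genes, Xcl1 was at 1.88 ± 0.39 (SE, adjusted p = 0.00271), with NK cells at 1171 and 101 in IgG and 199 and 659 in BP, so that the IgG values lay on both sides of BP, and T cells at 636 and 335 in IgG against 54.3 and 182 in BP. Its adjusted p was 0.731 without IgG 2, 0.725 without BP 1 and 0.362 without BP 2. The other 5 were Samd3, Adgrl4, Pde7b, Lyz2 and 1700025G04Rik. Adgrl4 changed sign without IgG 2, from a log2 difference of 3.69 to -6.43. No gene was called without BP 1, 1 (Samd3) without IgG 2, 3 without BP 2 and 18 without IgG 1, of which 7 were among the 14. Gzmb, Gzma and Ifng were called in none of these 4 fits, and Gzmb had adjusted p-values of 0.218 to 1. Rad51b, Gm19585, Samd3, Adgrl4, Pde7b, Lyz2 and 1700025G04Rik were named after their values were seen. Ccl3 had adjusted p-values of 0.0122 without IgG 1, 0.166 without IgG 2, 0.894 without BP 1 and 0.00219 without BP 2.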

How the data were processed

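The deposited files hold raw UMI counts per gene and barcode for 7 libraries, 32285 genes each; per the file headers they came from Cell Ranger 4, while the submitters' processing notes name version 7.0.1 and build mm10. The labels give the same chemistry for libraries whose barcode lists differ in length. Barcodes were kept at 1000 UMIs, 500 genes and 15% mitochondrial UMIs. Doublets were scored with Scrublet in scanpy 1.11.5 and kept in the main values. Members were clustered with leidenalg 0.10.2. Counts were summed per library and tested with edgeR 4.0.16 (quasi-likelihood, TMM scaling, filter on low counts, Benjamini-Hochberg adjustment over all genes tested), and DESeq2 1.42.0 was an alternative. The SE printed with edgeR values is the absolute log2 fold change divided by the square root of the F statistic. It was derived from the test and not estimated directly by the model. BP, BPI, CD40 and IgG libraries were fitted together, with UT added for its own comparison. Shares were compared by exact permutation over libraries, with exact binomial or Poisson 95% intervals that cover counting error only. The scripts were tested on simulated data.

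The members and gene lists were chosen with earlier results of these data known. Named genes were a fixed panel of 80 plus, per comparison, up to 6 rises and 6 falls among called genes with an average log2 CPM of at least 6 and under 10% free RNA. The view outside cluster 1, the limit of 10000 UMIs and thinning before summing were chosen after seeing the data. Mx1 and Aldoa of the lists matched no gene. Same-numbered IgG and BP libraries were not paired by the labels.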

Additional observations from a re-analysis of the deposited data

How the results depend on the processing

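The BP minus IgG difference in NK share stayed above 0 in every setting run. It was 0.590 points with thinned cells and 0.643 to 2.25 when single libraries were left out. The NK to T difference was -42.4 with a gate of 1 UMI and ran from -29.2 to 0.362 over the left-out libraries, above 0 without IgG 1. Counts of called genes depended on the setting. For BP against IgG they were 4 with DESeq2, 23 without the filter on low counts, 8 with a gate of 3 UMIs, 6 without cluster 1, 1 without cells over 10000 UMIs, 1 with cells thinned to 1000 UMIs, 1 in libraries of at least 20 cells and 0 to 21 over the left-out libraries. For BPI against IgG they were 14 without the filter, 1 thinned, 1 without cluster 1 and 0 to 5 over the left-out libraries. For CD40 against IgG they were 2 with DESeq2, 44 without the filter, 45 with a gate of 3 UMIs, 0 with free RNA subtracted, 3 without cells over 10000 UMIs, 0 thinned, 6 without cluster 1 and 10 to 23 over the left-out libraries. For BPI against BP they were 10 without the filter, 1 thinned, 8 without cluster 1, 1 in libraries of at least 20 cells and 0 to 14 over the left-out libraries. For UT against IgG they were 20 with DESeq2, 43 with DESeq2 size factors, 134 without the filter, 2 with free RNA subtracted, 13 without cells over 10000 UMIs, 22 thinned, 22 without cluster 1, 0 in libraries of at least 20 cells and 0 to 537 over the left-out libraries. The difference between NK and T cells gave 10 with thinned T cells, 14 without cluster 1 and 0 to 286 over the left-out libraries. The cause of these shifts was not tested. With the replicate block 0 genes were called, as with the numbers crossed. Over 452 refits of 34 gene and comparison pairs, 116 were of called results, and 37 of these lost the call. Among the rest, 23 gained a call, and 0 of the 452 changed direction. Adgrl4, which is not among the 34 pairs, changed direction in the difference between NK and T cells outside cluster 1 without IgG 2. Cells without any T-cell or Lyz2 UMI, planned as a stricter gate, were too few per library and could not be fitted.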
